A study of Mus musculus with 6 samples.

Results

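The genes described here are 35 genes of homologous recombination, of the Fanconi anemia pathway and of the DNA damage checkpoint, taken by symbol from a fixed list. Of these, 31 had a probe set naming them alone and were measured, out of 22180 genes in all; Xrcc2, Rad54b, Fanca and Rbbp8 were not analysed here. For a gene with several probe sets the brightest one was used. The values are log2 expression (RMA values) on 6 mouse arrays. The wild-type group, K8wt, held 3 arrays of YFP+ luminal mammary epithelial cells (replicates 1, 2 and 4, each named as a mouse of its own), sorted from Rosa26-Stop-YFP females 10 to 14 days after Ad-K8-Cre, a Cre adenovirus under a keratin 8 promoter, was injected into the ducts. The tumor group, Brca1Tumor, held 3 mammary tumors (numbers 23, 24 and 25), labelled Trp53/Brca1-null, of Trp53L/L;Brca1L/L females given the same virus several months earlier. Both groups therefore received Cre, while the L/L alleles of Trp53 and Brca1 were carried by the tumor group alone. The labels give no ages and do not say if the tumors arose in separate animals. Sorting is described only for K8wt, no such step is named for the tumors, and in bulk samples fewer cells of a type cannot be told apart from less RNA per cell.

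Homologous recombination repairs broken DNA from an intact copy, usually the sister chromatid, and is active in the S and G2 phases of the cell cycle. The ends are first cut back to single strands by nucleases, the strands are coated by RPA, and BRCA1, PALB2 and BRCA2 then prepare them for the search for the intact copy. The Fanconi anemia pathway unhooks crosslinks between DNA strands and hands the resulting breaks to this machinery, while the kinases ATM and ATR halt the cycle until repair is done. In the mammary gland, inherited loss of BRCA1, BRCA2 or PALB2 predisposes to cancer.

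Across the 31 measured genes, 30 had a higher mean in the tumors than in wild-type luminal cells (96.8%, against 41.7% of all genes), and 3 passed the test, all upward: Brca2, Mre11a and Brca1. The test was limma's over all 22180 genes with a Benjamini-Hochberg adjusted p under 0.05. In the same direction 2.52% of all genes passed, and 1.39% passed downward, against 9.68% and none of the members. At an unadjusted p under 0.05, 16 members were higher and none lower, where 13.4% of all genes were higher. For 15 members (48.4%) every tumor array lay above every wild-type array, against 14.0% of all genes; for none did every tumor lie below, against 22.4% of all genes. The median difference, tumor minus wild type, was 0.73 log2 units over the members and -0.12 over all genes. These counts and medians describe the list and carry no test of their own. The list was chosen with earlier results of these data known.

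Leaving out single arrays moved the count of members that passed between 0 and 4. None passed without wild-type replicate 2, without wild-type replicate 4 or without tumor 23, only Brca2 passed without wild-type replicate 1 or without tumor 25, and Brca2, Mre11a, Exo1 and Chek2 passed without tumor 24. The calls over all genes moved too: upward calls made up 0.135% to 0.388% of all genes in the 4 sets without a wild-type array or tumor 23, 1.16% without tumor 25 and 4.08% without tumor 24. The median difference of the members stayed between 0.53 and 0.81 over these 6 sets.

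**Figure D1:**
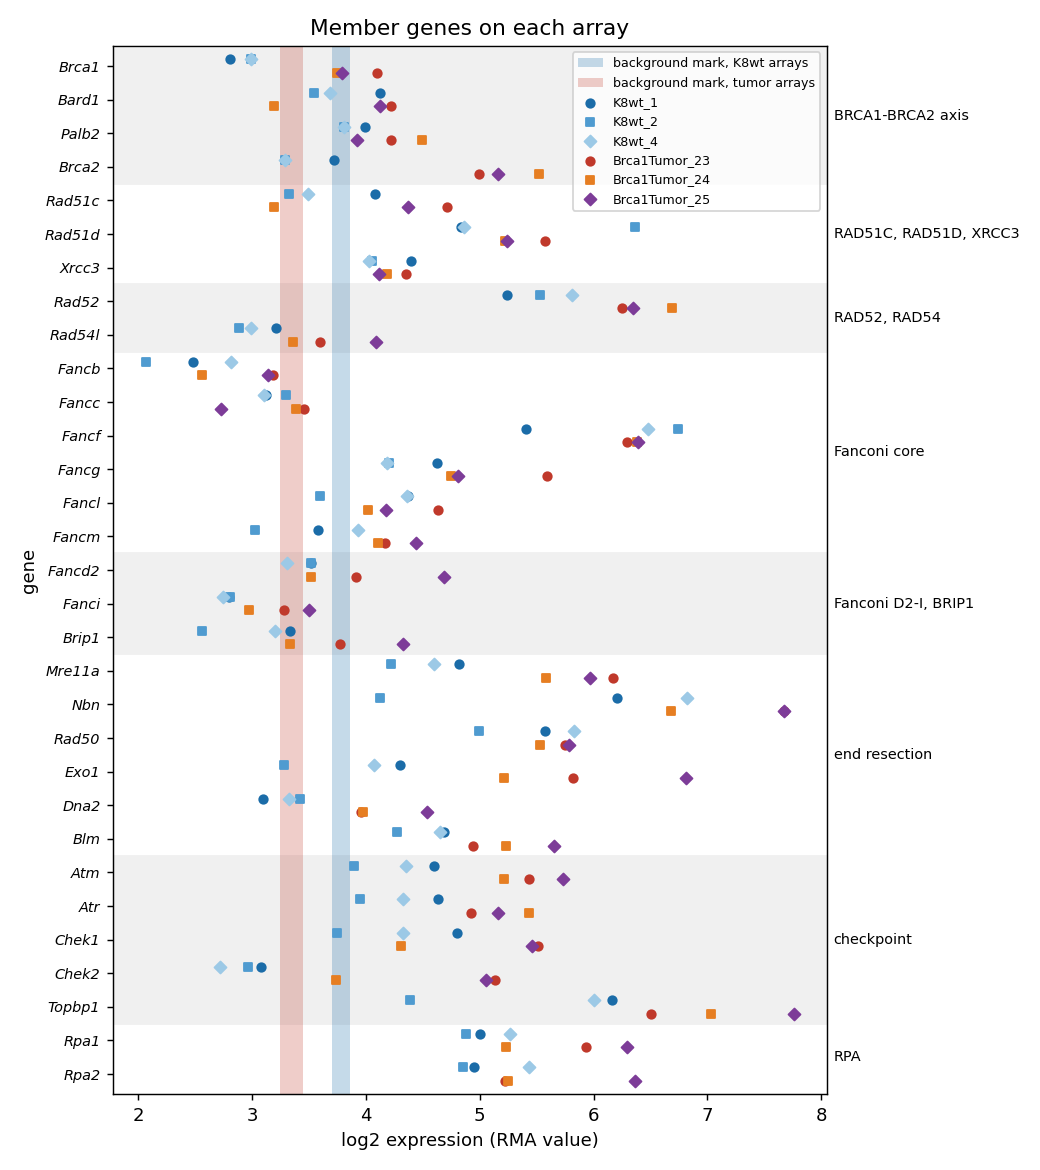
Log2 expression (RMA value, horizontal axis) of each of the 31 member genes on the 6 arrays, 1 point per array, ordered by role; shaded bands span the background marks of the wild-type arrays (3.70 to 3.86) and of the tumor arrays (3.24 to 3.45). Brca2, Brca1, Chek2, Dna2 and Fancd2 lie under their array's own mark on all 3 wild-type arrays and over it on all 3 tumors. The marks differ between the groups. Fancd2 measured 3.52 in wild-type replicates 1 and 2 and also in tumor 24. In tumor 24, Brca1 (3.74) and Chek2 (3.73) lie inside the wild-type band, as does Brca1 in tumor 25 (3.79).

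Many of these genes were dim. A mark for background was set on each array at the 95th percentile of 1105 olfactory receptor genes, a family that mammary cells are not known to use. Among the K8wt arrays, 10 of the 31 members lay under the mark on all 3 and 14 lay above it on all 3. Of all 22180 genes, 9155 and 10129 did. In the tumors 1 member (Fancb) lay under the mark on all 3 arrays and 24 lay above it on all 3, against 7972 and 11744 of all genes. Counted by array, 11, 17 and 12 members were under the mark in wild-type replicates 1, 2 and 4, and 1, 7 and 2 in tumors 23, 24 and 25. The marks themselves were higher on the wild-type arrays than on the tumor arrays. Among all genes with a mean under 5, 29.2% had the higher mean in tumors and the median difference was -0.21. All 22 members of that brightness had the higher mean in tumors, with a median difference of 0.72. For the 9 brighter members, whose mean was at least 5, the median difference was 0.77, against 0.32 over all genes that bright. Every tumor lay above every wild-type array for 3 of these 9 (33.3%), against 24.5% of all genes that bright. For the 22 dimmer members this held for 12 (54.5%), against 8.36% of genes with a mean under 5. The dim sets were unlike, as 7969 of those 14454 genes lay under the mark on all 3 tumor arrays, against 1 of the 22 members.

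The BRCA1-BRCA2 axis held 2 of the 3 members that passed. Brca2 encodes a large protein that acts on single-stranded DNA at the break. It measured 3.72, 3.29 and 3.29 in wild-type replicates 1, 2 and 4, and 4.99, 5.52 and 5.16 in tumors 23, 24 and 25. The lowest tumor lay 1.27 above the highest wild-type array. The rise was 1.79 ± 0.22 log2 units (SE), 3.45-fold, with an adjusted p of 0.018. Since all 3 wild-type values were under the background mark, the size is better given as a bound. Against the mean mark of the wild-type arrays the tumor mean was at least 2.73-fold higher. Brca2 passed under all 7 other processing settings that kept it and in 3 of the 6 leave-one-out sets.

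Brca1, the E3 ligase subunit that directs ends towards recombination and the gene targeted in the tumor group, measured 2.81, 2.99 and 2.99 in wild-type replicates 1, 2 and 4 and 4.10, 3.74 and 3.79 in tumors 23, 24 and 25. The groups did not overlap, and the arrays labelled tumor were the higher ones. The rise was 0.94 ± 0.18 log2 units (SE) with an adjusted p of 0.044, and it passed under 5 of the 6 other settings that kept it but in no leave-one-out set, where the adjusted p ran from 0.051 to 0.13. All wild-type values were under the mark, and the tumor mean was only 1.07-fold the mean of those marks. Tumors 24 and 25 lay under the mark of wild-type replicate 2 (3.86), so this fold sets no least rise. Which exons the L allele loses and where the probes lie is not stated in the labels, so this level checks nothing about the deletion. Trp53 itself was not analysed here.

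Mre11a, the nuclease of the MRE11-RAD50-NBN complex that starts the cutting of broken ends, was the third member to pass. It measured 4.82, 4.22 and 4.60 in wild-type replicates 1, 2 and 4 and 6.17, 5.58 and 5.97 in tumors 23, 24 and 25. Every value was above the background mark, and the lowest tumor lay 0.76 above the highest wild-type array. The rise was 1.36 ± 0.24 (SE), 2.57-fold, with an adjusted p of 0.039. It did not pass after quantile normalization again, after centring on housekeeping genes or with a trended robust prior, nor in 5 of the 6 leave-one-out sets.

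The sequences before the starts of these 3 genes are shown because they are the members whose levels passed the test. They are from RefSeq's promoters on GRCm38.p6, 5' to 3' on the gene's strand and ending at the base before the listed start: Brca2 at chr5:150522371-150522620 (+ strand, 250 bases), Brca1 at chr11:101551956-101552106 (- strand, 151 bases) and Mre11a at chr9:14784574-14784653 (+ strand, 80 bases). The latter pair stop at the start of a gene on the other strand, Nbr1 and Ankrd49. Capitals mark matches to the words described after them.
Brca2: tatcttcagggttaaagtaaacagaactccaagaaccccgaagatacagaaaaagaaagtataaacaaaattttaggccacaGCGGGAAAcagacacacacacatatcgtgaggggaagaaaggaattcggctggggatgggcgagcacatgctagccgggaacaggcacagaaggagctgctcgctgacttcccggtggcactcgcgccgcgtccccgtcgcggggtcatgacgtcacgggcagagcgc
Brca1: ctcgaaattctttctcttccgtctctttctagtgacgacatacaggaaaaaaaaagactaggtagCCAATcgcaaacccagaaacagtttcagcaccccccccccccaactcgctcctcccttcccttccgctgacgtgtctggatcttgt
Mre11a: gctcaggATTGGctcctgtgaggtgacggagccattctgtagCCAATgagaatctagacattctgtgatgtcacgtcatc

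Words of 3 motifs were searched on both strands in the 250 bases before the start, taking the first listed start of each gene. They were an E2F word (TTTCCCGC, TTTGGCGC, TTTCGCGC or TTTGCCGC), bound by the factors that switch on S-phase genes, the cell cycle homology element TTTGAA, and the CCAAT box. The promoter table held 26 of the 31 members; Rad51d, Nbn, Rad50, Exo1 and Fancd2 were not in it. An E2F word was found in 5 of the 26 (19.2%), namely Brca2, Bard1, Chek2, Fancg and Topbp1, against 2.42% of 16990 measured genes in the table. In Brca2 it starts 168 bases before the start and reads GCGGGAAA on the gene's strand. A CCAAT box was found in 14 of 26 members (53.8%), against 35.6% of measured genes, and TTTGAA in 1 (3.85%, Bard1) against 14.2%. In Brca1 the CCAAT box begins 86 bases before the start, and in Mre11a the boxes begin 73 and 38 bases before it, the first of them on the other strand. No matches of different motifs overlapped in the members. The median GC content of the members' windows was 58.6%, against 55.6% for measured genes, and whether it accounts for these shares was not tested. A match is a description of the letters only. The members with an E2F word did not share 1 size of difference, since Brca2, Chek2 and Topbp1 were 1.58 to 1.79 higher in tumors, Fancg 0.71 and Bard1 0.06.

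A gene on the opposite strand started within 1000 bases upstream of 10 of the 26 members, and 9 of these neighbours were measured. None of the 9 passed the test. Nbr1, which starts 152 bases from Brca1, measured 0.40 ± 0.29 (SE) higher in tumors, and Ankrd49, 81 bases from Mre11a, 0.98 ± 0.54. Npat, 376 bases from Atm, measured 0.08 ± 0.29, beside 1.17 for Atm. Dctn5 next to Palb2 was 1.21 ± 0.34 higher, with tumors above every wild-type array and an adjusted p of 0.10, where Palb2 itself measured 0.34. Smyd4, 50 bases from Rpa1, was 0.96 ± 0.20 higher without overlap, at an adjusted p of 0.057. The difference between a member and its neighbour was not tested.

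The other partners of the BRCA axis did not pass. Bard1, the obligate ring-finger partner of BRCA1, measured 3.79 ± 0.30 in wild-type cells and 3.85 ± 0.56 in tumors (SD, n = 3), with tumor 24 at 3.20 under every wild-type array and tumors 23 and 25 at 4.22 and 4.12. Palb2, which bridges BRCA1 and BRCA2, measured 3.87 ± 0.11 and 4.21 ± 0.29 (SD, n = 3), and was highest in tumor 24 at 4.5. Within the axis, Brca1 and Brca2 had tumor values apart from wild type, while those of Bard1 and Palb2 overlapped with it.

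**Figure D2:**
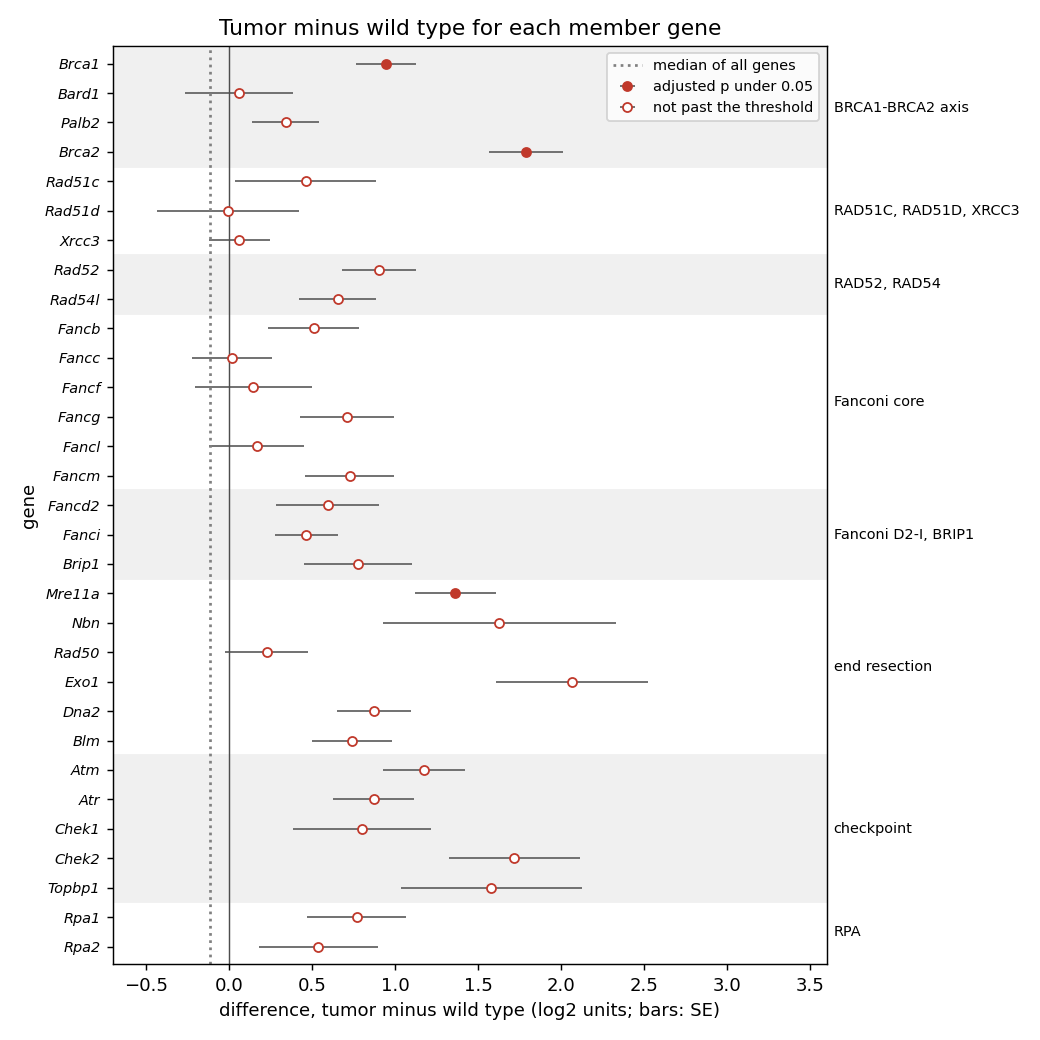
Difference, tumor minus wild type, in log2 units (horizontal axis) with its standard error for each member gene, ordered by role; filled points passed an adjusted p of 0.05 and the dotted line is the median of all genes (-0.12). Brca2, Brca1 and Mre11a are filled, Exo1 has the largest difference (2.06), and Rad51d is the only member below 0.

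Rad51c, Rad51d and Xrcc3, which form complexes that assist recombination, were the next role group, and none of these 3 passed. Rad51c had the largest difference, 0.46 ± 0.43 (SE) with an adjusted p of 0.49. It measured 4.08, 3.33 and 3.49 in wild-type replicates 1, 2 and 4 and 4.71, 3.19 and 4.37 in tumors 23, 24 and 25, so the lowest value of all was a tumor. Xrcc3 measured 4.16 ± 0.21 and 4.22 ± 0.12 in wild-type cells and tumors (SD, n = 3). Rad51d measured 5.35 ± 0.87 and 5.35 ± 0.19 (SD, n = 3), with wild-type replicate 2 at 6.36 above all other arrays; without that array it was 0.50 higher in tumors, again without passing. The median difference of these 3 genes was 0.06.

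Rad52, which anneals complementary single strands, measured 5.24, 5.53 and 5.81 in wild-type replicates 1, 2 and 4 and 6.25, 6.69 and 6.35 in tumors 23, 24 and 25. All values were well over the background mark and the groups did not overlap, by a gap of 0.44. The difference was 0.90 ± 0.22 (SE) and did not pass, with an adjusted p of 0.077 here and of 0.072 to 0.52 over the alternatives. Rad54l, a DNA motor protein of recombination, measured 3.03 ± 0.17 in wild-type cells, under the mark on all 3 arrays, and 3.68 ± 0.37 in tumors (SD, n = 3), with the highest value, 4.09, in tumor 25.

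None of the 6 measured genes of the Fanconi core complex, which attaches ubiquitin to FANCD2 and FANCI, passed, and their median difference was 0.34. Fancm, the translocase that anchors the core complex on DNA, had the largest difference, 0.73 ± 0.27 (SE) with an adjusted p of 0.16. It measured 3.58, 3.02 and 3.93 in wild-type replicates 1, 2 and 4 and 4.17, 4.10 and 4.44 in tumors 23, 24 and 25, with no overlap. Fancg, a scaffold of the complex, was also without overlap, at 4.34 ± 0.25 and 5.05 ± 0.47 (SD, n = 3), with tumor 23 at 5.59 and the other tumors at 4.75 and 4.81.

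The remaining core members overlapped between groups. Fancl, the ubiquitin ligase of the complex, measured 4.11 ± 0.44 in wild-type cells and 4.28 ± 0.32 in tumors (SD, n = 3). Fancf, an adaptor within the complex, measured 6.21 ± 0.71 and 6.35 ± 0.05 (SD, n = 3), the 3 tumors lying between 6.29 and 6.39 inside a wild-type range of 5.40 to 6.74. Fancc measured 3.18 ± 0.11 and 3.19 ± 0.40 (SD, n = 3), under the mark on all 3 wild-type arrays and in 2 of the 3 tumors. Fancb, an X-linked core subunit, measured 2.45 ± 0.38 and 2.96 ± 0.35 (SD, n = 3) and was under the mark on every array, so no level of it is told from background here.

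Fancd2 and Fanci, the pair that is clamped onto damaged DNA once ubiquitin is attached, and Brip1, the helicase that binds BRCA1, stayed below the background mark throughout the K8wt group. Brip1 measured 3.33, 2.57 and 3.20 in wild-type replicates 1, 2 and 4 and 3.77, 3.33 and 4.32 in tumors 23, 24 and 25. The measured difference was 0.78 ± 0.33 (SE) and did not pass (adjusted p of 0.19). The tumor mean of Brip1 was only 1.02-fold the mean wild-type mark. Fancd2 measured 3.45 ± 0.13 in wild-type cells (SD, n = 3) and 3.91, 3.52 and 4.69 in tumors 23, 24 and 25. Its difference of 0.59 ± 0.31 (SE) did not pass (adjusted p of 0.26). Its tumor mean was 1.20-fold the mean wild-type mark, and neither fold sets a least rise. Fanci measured 2.79 ± 0.04 in wild-type cells (SD, n = 3) and 3.28, 2.97 and 3.50 in the same tumors. All 3 genes were thus highest in tumor 25 and lowest of the tumors in tumor 24, where Fancd2 and Brip1 were no higher than the highest wild-type array.

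Among the resection genes, Exo1, the nuclease that extends the single strand, showed the largest difference of all members, 2.06 ± 0.46 log2 units (SE). It measured 4.30, 3.28 and 4.07 in wild-type replicates 1, 2 and 4 and 5.82, 5.21 and 6.81 in tumors 23, 24 and 25. The groups were 0.92 apart, tumor 25 was well above the other tumors, and the adjusted p was 0.063. Exo1 passed without tumor 24 (2.43), when only genes as bright as the median gene were tested, with housekeeping centring, with a trended robust prior and with array weights.

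Nbn, the subunit of the same complex as Mre11a that recruits ATM, measured 6.20, 4.13 and 6.82 in wild-type replicates 1, 2 and 4 and 7.67, 6.68 and 7.67 in tumors 23, 24 and 25. Wild-type replicate 2 stood far below the other arrays, and tumor 24 lay within the wild-type range. The difference of 1.63 ± 0.70 (SE) did not pass (adjusted p of 0.20), and it was 0.83 without wild-type replicate 2. Rad50, the structural subunit that tethers ends, differed by 0.23 ± 0.25 (SE) with overlapping groups, at 5.46 ± 0.43 and 5.69 ± 0.14 (SD, n = 3). Within this complex Mre11a thus passed and Nbn and Rad50 did not; whether the 3 differed from each other was not tested.

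The long-range resection helicases were higher in tumors on all arrays without passing. Dna2, a helicase and nuclease, measured 3.28 ± 0.17 in wild-type cells, under the mark on all 3 arrays, and 4.15 ± 0.33 in tumors (SD, n = 3), with an adjusted p of 0.082. Blm, the RecQ helicase lost in Bloom syndrome, measured 4.53 ± 0.23 and 5.27 ± 0.36 (SD, n = 3), with an adjusted p of 0.13. Over the 6 resection genes the median difference was 1.12.

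All 5 checkpoint genes had higher means in tumors, with a median difference of 1.17, and none passed. Chek2, the effector kinase of ATM, had the largest difference, 1.72 ± 0.39 (SE) with an adjusted p of 0.066. It measured 3.08, 2.96 and 2.72 in wild-type replicates 1, 2 and 4, all under the background mark, and 5.13, 3.73 and 5.05 in tumors 23, 24 and 25. The groups did not overlap, but tumor 24 lay 1.32 below the next tumor. The tumor mean was 1.82-fold the mean wild-type mark. Without tumor 24 the difference was 2.17 and passed, with an adjusted p of 0.015, and it also passed with housekeeping centring, a trended robust prior or array weights.

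Atm, the kinase that answers double-strand breaks, measured 4.60, 3.90 and 4.35 in wild-type replicates 1, 2 and 4 and 5.43, 5.22 and 5.73 in tumors 23, 24 and 25. These groups were 0.62 apart with every value above the mark; the difference was 1.17 ± 0.25 (SE), 2.26-fold, with an adjusted p of 0.056. Atr, the kinase that answers stalled forks, was 0.87 ± 0.24 (SE) higher without overlap, at 4.30 ± 0.34 in wild-type cells and 5.17 ± 0.25 in tumors (SD, n = 3), with an adjusted p of 0.096. Of these kinases Atm passed under 1 alternative, array weights, and Atr under none.

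Topbp1, the activator of ATR, measured 6.17, 4.39 and 6.0 in wild-type replicates 1, 2 and 4 and 6.5, 7.03 and 7.76 in tumors 23, 24 and 25. As for Nbn, wild-type replicate 2 was far below the others, and without it the difference was 1.02 in place of 1.58. Chek1, the effector kinase of ATR, measured 4.29 ± 0.53 and 5.09 ± 0.68 (SD, n = 3); tumors 23 and 25 were at 5.52 and 5.46, and tumor 24 at 4.31 was within the wild-type range.

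Rpa1 and Rpa2, subunits of the trimer that coats single-stranded DNA in replication and repair, did not pass. Rpa1 measured 5.0, 4.88 and 5.27 in wild-type replicates 1, 2 and 4 and 5.93, 5.23 and 6.29 in tumors 23, 24 and 25. Tumor 24 lay inside the wild-type range, and the tumors were 0.77 ± 0.30 (SE) higher at an adjusted p of 0.17. Its dimmer probe set went the other way, at -0.72, from 3.22 to 2.5. Rpa2 measured 5.08 ± 0.31 and 5.61 ± 0.65 (SD, n = 3), with tumor 25 at 6.37 apart from tumors 23 and 24 at 5.22 and 5.25. Of the members only Rpa1 and Atr had more than 1 probe set, and the dimmer one of Atr measured 0.23 beside 0.87 for the brighter.

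**Figure D3:**
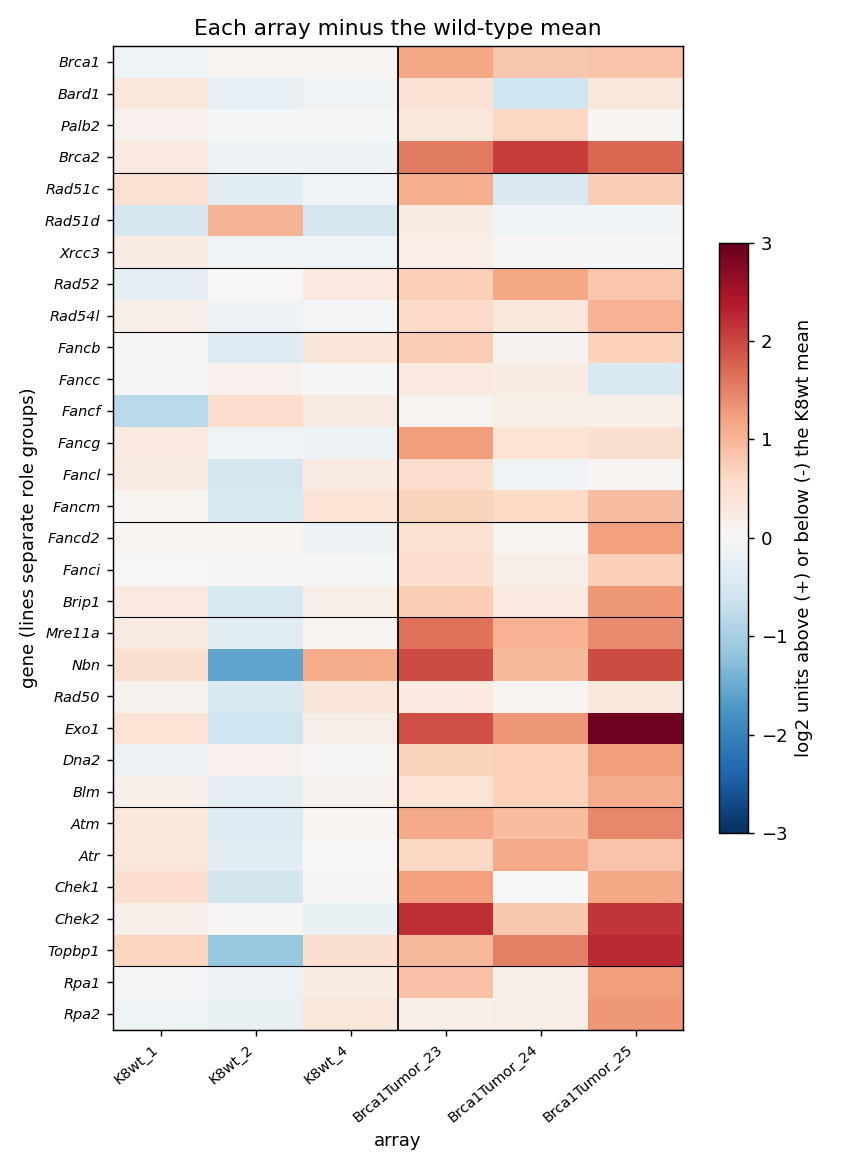
Value of each member gene (rows, ordered by role) on each array (columns) minus its mean over the 3 K8wt arrays, in log2 units, as colour from blue (below) to red (above). The columns of tumors 23 and 25 are red for most genes, that of tumor 24 is paler with blue cells for Bard1 and Rad51c, and wild-type replicate 2 is blue for Nbn and Topbp1.

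The tumors differed among themselves. Against the wild-type mean the median of the members stood highest in tumor 25 (0.93), then in tumor 23 (0.67), and lowest in tumor 24 (0.33). The medians of all genes were -0.11, -0.12 and -0.14 in the same order. Over all genes with a mean of at least 5 they were 0.43, 0.32 and 0.15, so bright genes in general shared this order of tumors. Tumor 24 was the lowest tumor for 20 of the 31 members (64.5%), against 39.0% of all genes and 49.1% of genes with a mean of at least 5. It was the highest for 4 members (12.9%, against 32.3% of all genes), which were Brca2, Palb2, Rad52 and Atr. Tumor 25 was the highest for 14 (45.2%), against 36.0% of all genes and 45.3% of genes with a mean of at least 5. Tumor 23 was the highest for 13 (41.9%), against 31.8% and 29.4%. Wild-type replicate 2 stood apart in the same manner on its side, being the lowest wild-type array for 20 of the 31 members (64.5%). That compares with 35.4% of all genes and 44.6% of genes with a mean of at least 5. With 1 array per tumor these orders have no replicate check.

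The mean of the members followed the same order over arrays as that of 14 measured markers of cycling cells, among them Mki67, Cdk1 and the Mcm genes. For the cycling markers the mean was 5.58, 4.38 and 5.57 in wild-type replicates 1, 2 and 4 and 7.15, 6.10 and 7.77 in tumors 23, 24 and 25. For the members it was 4.24, 3.89 and 4.22 and then 4.95, 4.61 and 5.08. In both, wild-type replicate 2 was lowest, tumor 24 was the lowest tumor and tumor 25 the highest. The order of the tumors was not particular to them. The mean of the housekeeping genes was 8.57, 8.09 and 8.68 in tumors 23, 24 and 25. In wild-type replicates 1, 2 and 4 it was 7.67, 7.97 and 7.84, with replicate 2 highest. All 14 cycling markers had higher means in tumors and 3 of them passed. The part of cycling cells in the differences of the members was not tested.

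**Figure D4:**
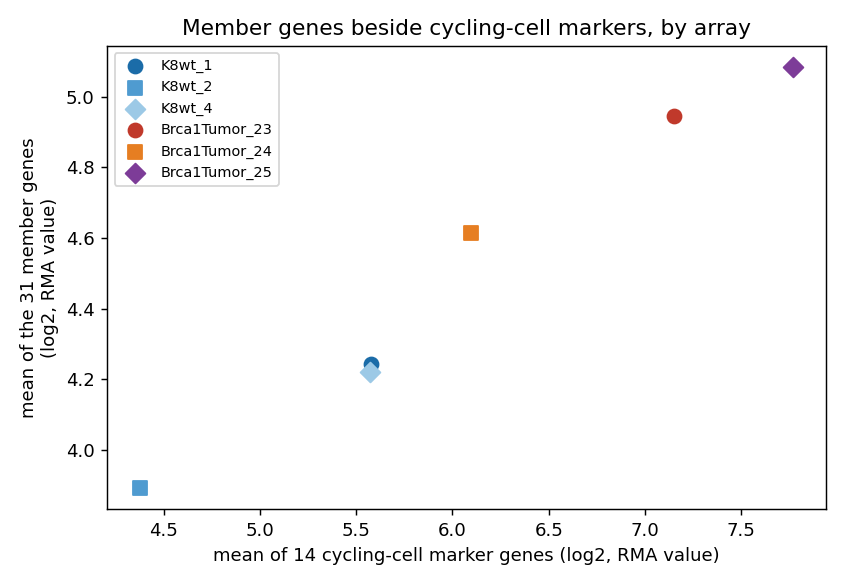
Mean log2 value of the 31 member genes (vertical axis) against the mean of 14 cycling-cell marker genes (horizontal axis), 1 point per array. The 3 tumors lie to the upper right of the 3 wild-type arrays, with wild-type replicate 2 lowest and tumor 25 highest on both axes.

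The means of some cell type markers differed between the groups as well. The mean of 5 macrophage markers lay between 4.05 and 4.75 on wild-type arrays and between 6.91 and 7.67 in tumors, and all 5 rose. That of 5 luminal markers (Krt8, Krt18, Krt19, Epcam and Cdh1) lay between 9.30 and 10.1 in wild-type cells and between 7.24 and 8.62 in tumors, and none of the 5 passed the test. All but Krt19, at 2.05 in tumor 25, were above the background mark on all 6 arrays. Skeletal muscle markers, 5 in number and none past the test, ran from 3.34 to 3.53 in wild-type cells. Tumor 24 was there too, at 3.52, while tumor 25 had a mean of 6.23 and tumor 23 of 9.20. Basal markers (3 measured) ran from 6.31 to 7.04 in wild-type cells and from 6.16 to 8.79 in tumors, with tumor 24 highest. Markers of fibroblasts (5.69 to 7.52 in tumors, 5.92 to 6.37 in wild-type cells) and of endothelium had 1 or more tumors within or below the wild-type range. T cell markers ran from 3.58 to 3.94 in tumors and from 3.63 to 4.05 in wild-type cells. Adipocyte markers ran from 3.62 to 4.19 in tumors, below every wild-type array (4.47 to 5.30), and none of the 4 passed. The part of these cells in the differences of the members was not tested.

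Outside the list, 54 of 56 other genes of the same pathways were measured, and 6 rose while none fell (11.1% upward, against the 2.52% of all genes). The list was taken whole, but it was chosen with earlier results of these data known. Mus81, a nuclease subunit that cuts branched DNA, rose by 1.26 ± 0.17 (SE), and its wild-type values of 4.40 to 4.61 and tumor values of 5.60 to 5.93 lay well apart. Fance, the core subunit that binds FANCD2, rose by 1.77 ± 0.28, with an adjusted p of 0.029, beside differences of 0.73 or less in the 6 core members measured. Fbh1, a DNA helicase, rose by 1.45 ± 0.24, the RecQ helicase gene Recql by 1.45 ± 0.28, and Bap1, a deubiquitinase bound to BRCA1, by 2.04 ± 0.37. Hus1, of the clamp that activates ATR through TOPBP1, rose by 1.21 ± 0.22.

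The other parts of that clamp, Rad9a and Rad1, measured 1.67 ± 0.44 and 1.63 ± 0.48 higher without passing. The largest differences that did not pass were those of the chromatin remodeller Hells (2.68 ± 0.64, SE), of the histone gene H2ax (2.16 ± 0.91) and of Tipin, of the fork protection complex (2.03 ± 0.58). Every wild-type value of Tipin was under its array's background mark, so its size is a bound, with the tumor mean 2.79-fold the mean wild-type mark. Hells passed when only bright genes were tested, with housekeeping centring and with a trended robust prior. Rad9a passed when only bright genes were tested and Tipin with housekeeping centring. Without tumor 24, H2ax (3.23) and Tipin (2.70) passed. H2ax measured 10.2 and 10.6 in tumors 23 and 25 and 7.21 in tumor 24, within its wild-type range. Wee1, the kinase that holds CDK1 inactive, was the lowest of the list at -1.84 ± 0.43 (SE), with tumors at 5.32, 4.87 and 6.24 under wild-type values of 6.89 to 7.94 and an adjusted p of 0.068. It passed downward when only bright genes were tested, with housekeeping centring, with cyclic loess and with a further quantile normalization. Of the 54, 44 had the higher mean in tumors (81.5%, against 41.7% of all genes) and the median difference was 0.60. In 5 of the 6 leave-one-out sets none of the 54 passed, and without tumor 24, 9 did.

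**Figure D5:**
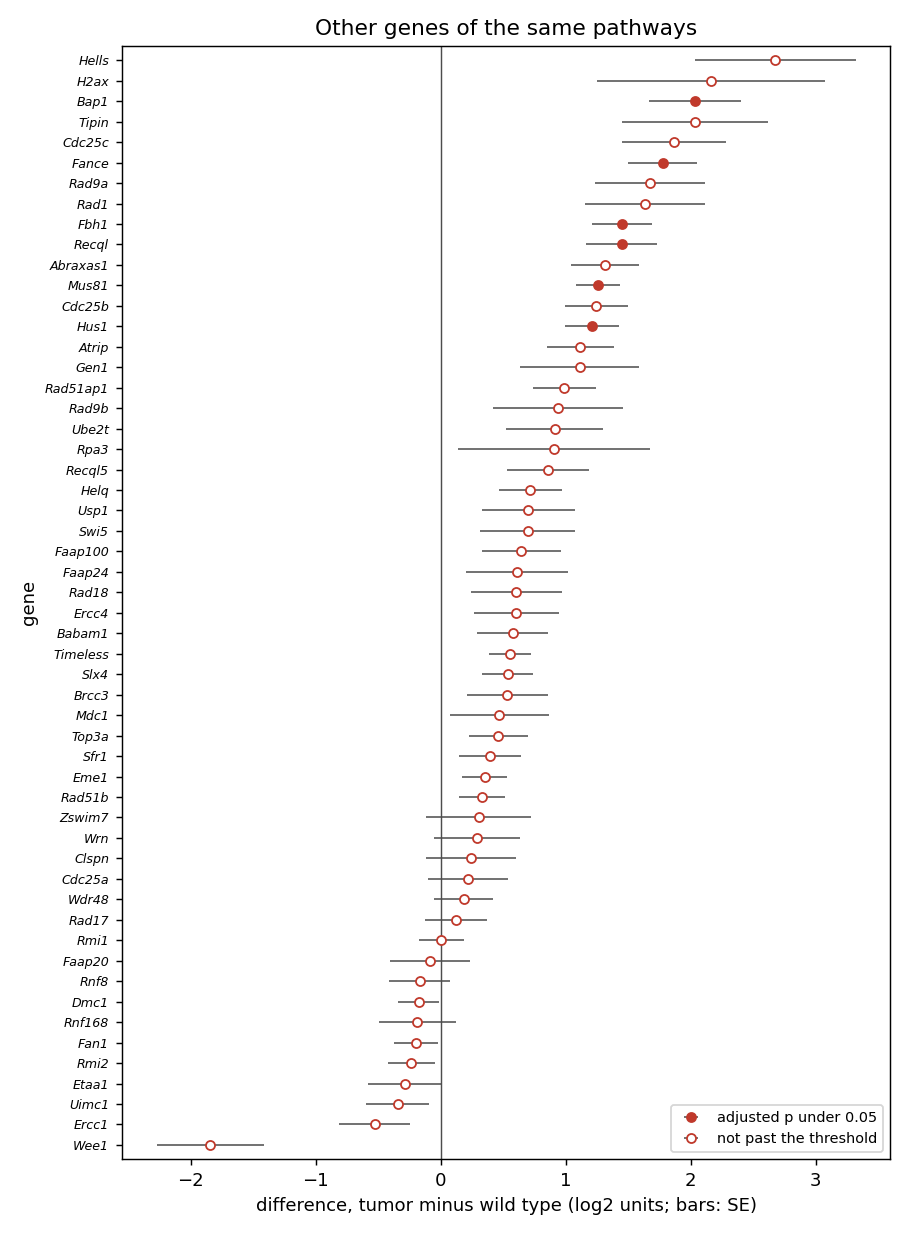
Difference, tumor minus wild type, in log2 units with its standard error (horizontal axis) for 54 other genes of the same pathways, sorted by size; filled points passed an adjusted p of 0.05. The 6 filled points lie between 1.21 and 2.04, and Wee1 is the lowest at -1.84.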

How the data were processed

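Total RNA from 6 samples was amplified, labelled with biotin and hybridised to 1 array each, per the labels. The authors deposited one log2 value for each probe set and array. The submitters' processing notes name RMA and oligo without a version. RMA corrects background, quantile-normalizes and summarises probes, and compresses differences near background. Array data give no read depth, and 3 arrays a group limit the precision.

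Of 41345 probe sets, 23521 named 1 gene, and 23328 of these were matched by Entrez identifier to RefSeq genes of GRCm38.p6. Each of 22180 genes was read from its brightest probe set, judged by the mean of all arrays. Tumor and wild-type arrays were compared in R 4.3.3 by limma 3.58.1, using lmFit and eBayes, with no covariate and no filter, two-sided, and Benjamini-Hochberg adjusted over all genes at 0.05. The step was also run on simulated data with known shifts and independent noise for each gene. Those data hold no effect shared by the genes of an array, so that run does not check the calls made here. The background mark is the 95th percentile of olfactory receptor genes on each array and was chosen after the data were seen. A lower bound on a fold sets the tumor mean against the mean mark of the wild-type arrays and carries no sampling error.

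The members and lists were chosen with earlier results of these data known. Every member is named; values on all arrays are given for members that passed and for the largest difference of each role, and for others where arrays stood apart, chosen after their values were seen. Of the other pathway genes, those that passed and the 3 largest differences that did not were named by rule, and Rad9a, Rad1 and Wee1 after their values were seen. Where the labels do not say that tumors came from separate animals, p-values measure the spread between these samples. The labels give the groups no shared replicate numbers. The sources used here name no batch, and none was tested. Alternatives changed the filter, the probe set rule, the normalization, the prior, the array weights and the arrays kept.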

Additional observations from a re-analysis of the deposited data

How the results depend on the processing

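No member passed downward under any of the 14 alternatives. The members that passed numbered 1 of 9 tested among genes with a mean of at least 5, where 8.40% of all genes tested passed upward, 6 with array weights, where 3.85% did, and 0 to 4 in the leave-one-out sets. All genes that passed numbered 915 among those with a mean of at least 5, 7523 after centring on housekeeping genes (7.28% of them higher, against 64.5%), 1324 with array weights and 72 to 1200 in the leave-one-out sets, where fewer arrays also leave fewer degrees of freedom. That centring took the all-gene median from -0.12 to -0.74 and that of the members to 0.11. It shifts every gene alike, so the members lay 0.84 above all genes both ways by construction. After quantile normalization again 44.3% of the genes that passed were higher in tumors, and after cyclic loess 52.3%. Other pathway genes that rose numbered 10 when only genes as bright as the median gene were tested, 3 after quantile normalization again, and 0 to 9 in the leave-one-out sets. Housekeeping centring moves the difference of every member by the same -0.62 log2 units, so which signs it turned was set by their size. Under the other alternatives 24 of the 31 members kept their direction wherever they were tested.

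The sign of small differences turned, always without passing. After housekeeping centring this held for Bard1 (-0.56), Palb2 (-0.28), Rad51c (-0.16), Xrcc3 (-0.56), Fancb (-0.11), Fancc (-0.60), Fancf (-0.48), Fancl (-0.45), Fancd2 (-0.028), Fanci (-0.16), Rad50 (-0.39) and Rpa2 (-0.084). After quantile normalization again it held for Xrcc3 (-0.059), Fancf (-0.17) and Rad50 (-0.15), after cyclic loess for Fancf (-0.15) and Rad50 (-0.061), and with array weights for Rad51d (0.26). In the leave-one-out sets Bard1 ran from -0.13 to 0.39, Rad51d from -0.26 to 0.50, Xrcc3 from -0.0068 to 0.18, Fancc from -0.12 to 0.25, Fancf from -0.26 to 0.41, Fancl from -0.090 to 0.30 and Rad50 from -0.0077 to 0.41. Brca1 did not pass after housekeeping centring (0.32). That value follows from the constant. The cause of the shifts under the other alternatives was not tested.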
